A study of Mus musculus with 4 samples.

Results

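The subject is 41 genes that encode transcription factors of kidney segments and lineages: factors of the early nephron and duct, of the collecting duct, of the loop of Henle and distal tubule, of the proximal tubule, and a set with broad or stromal expression. They were listed by name, and all 41 were found among the 27179 genes of the table by matching Entrez identifiers to mouse symbols. The samples were kidney medulla of mice of a mixed C57BL/6 strain at postnatal day 14, measured by mRNA sequencing in 4 libraries. The mutant group had 2 mice labelled Actr3 KO, in which a floxed Actr3 gene was combined with Cre driven by the Cdh16 promoter. The control group had 2 mice labelled as wild type controls, and the labels do not state whether these carried floxed alleles or Cre. Cdh16 is a cadherin of tubule epithelium, so this design leaves the gene intact in cells of other kinds in the same medulla. Arp3, the product of Actr3, belongs to the Arp2/3 complex, which nucleates branched actin filaments. Cdh16 stood at 41457 and 37685 normalized reads in the KO-labelled libraries and at 84350 and 99754 in the WT-labelled ones (log2 difference -1.21).

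Transcription factors of this kind are switched on in sequence as the nephron and the collecting duct form. PAX and LIM homeodomain factors mark the early lineage, Iroquois, POU and AP-2 factors pattern the loop and distal tubule, and grainyhead, ETS and TFCP2L1 factors maintain the collecting duct epithelium. Many stay on in mature tubules, where they keep transporter genes of their segment active.

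Actr3 itself stood at normalized read counts of 12587 and 12480 in KO-labelled libraries and 8065 and 7275 in the WT-labelled ones. It was thus higher where it is labelled as deleted. A count over the whole gene does not show whether the floxed exons were lost and checks neither the deletion nor the labels. The groups are therefore called KO-labelled and WT-labelled, and every direction below rests on those labels. The libraries held 36482238 to 40784436 recovered reads and 18972 to 19249 detected genes. Tissue markers were present in every library, with none of the thick ascending limb, thin limb, principal cell or intercalated cell markers at 0.

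Most of the 41 factors were lower in the KO-labelled medulla, a smaller number were higher and a few held. By limma on log2(normalized read count + 1), with p-values adjusted over the 16253 genes tested and a threshold of 0.05, 24 of the 41 fell (58.5%), against 24.9% of all genes tested. The share that rose, 10 of 41 (24.4%), was near the 26.3% of all genes. The other 7 factors (17.1%) did not pass the threshold, and each had a 95% interval of its log2 difference inside -1 to 1, which is called held here; 38.4% of all genes were held in this sense. Falls of at least 1 on the log2 scale numbered 10 of 41 (24.4%), against 1536 of the 16253 genes tested (9.45%). Rises of that size numbered 6 of 41, against 1745 of the 16253 (10.7%). The median log2 difference, KO-labelled minus WT-labelled, was -0.50 over the 41 factors and 0.00 over all genes tested. All 41 passed the filter on low values, which asked for an average of 10 or more normalized reads. In 38 of the 41 (92.7%) the groups did not overlap, but this was so for 78.5% of all genes tested. The shares of all genes that fell, rose or were held are the background for every count over a list below.

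**Figure D1:**
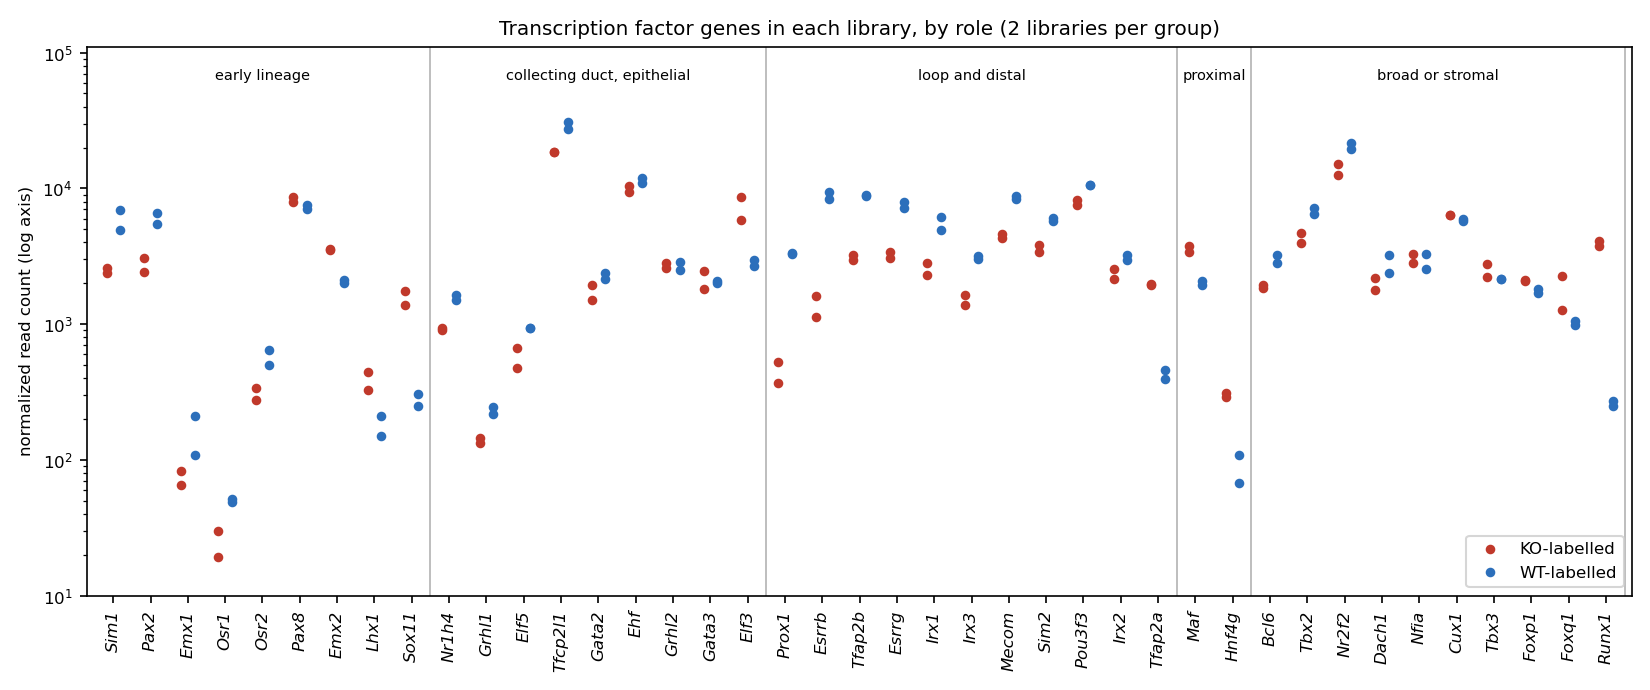
Normalized read count (log axis) of each of the 41 factor genes in each of the 4 libraries, with KO-labelled libraries (red) left of WT-labelled ones (blue), grouped by role and ordered within a role by change. Loop and distal factors lie lower in the KO-labelled libraries except Tfap2a, and the widest gap of all is that of Runx1.

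Of the loop of Henle and distal tubule factors 10 of 11 fell, 1 rose and none held, with a median log2 difference of -1.04. Prox1, a homeobox factor of the loop that is also the defining factor of lymphatic endothelium, had 531 and 371 normalized reads in KO-labelled libraries and 3333 and 3262 in the WT-labelled ones. All 12 endothelial markers also fell in these libraries (median log2 difference -1.35), and their part in the fall of Prox1 was not tested. The Prox1 groups were far apart, and the mean was 7.31-fold lower (log2 difference -2.89, SE 0.165, limma adjusted p = 3.00e-05; chromosome 1, 190118035 to 190170827, GRCm38). Esrrb, which encodes the orphan nuclear receptor ERR beta, read 1604 and 1135 in the KO-labelled libraries and 8338 and 9484 in the WT-labelled ones. That is a 6.51-fold lower mean (log2 difference -2.72, SE 0.160, limma adjusted p = 3.24e-05; chromosome 12, 86361117 to 86521628). Its relative Esrrg, ERR gamma, a receptor linked to mitochondrial gene expression, read 3414 and 3059 in KO-labelled medulla and 7997 and 7123 in WT-labelled medulla, a log2 difference of -1.22. In bulk tissue fewer cells of a type and less RNA per cell cannot be told apart, here and in every result below.

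The AP-2 genes moved in opposite directions. Tfap2b, which mouse distal tubules need to mature, had 3238 and 2983 normalized reads in the KO-labelled libraries and 9004 and 8728 in the WT-labelled ones. Its mean was 2.85-fold lower (log2 difference -1.51, SE 0.079, limma adjusted p = 2.13e-05; chromosome 1, 19208908 to 19238845). Tfap2a, its close relative, read 1959 and 1978 in the KO-labelled libraries and 395 and 463 in the WT-labelled ones. It was 4.59-fold higher and was the 1 loop and distal factor that rose (log2 difference 2.2, SE 0.116, limma adjusted p = 2.24e-05; chromosome 13, 40713802 to 40738238). Replicates of each gene stood close together, and the groups did not overlap in either.

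Promoter sequence is shown for the 3 deepest falls and the 3 largest rises that RefSeq lists, so that the opposed Tfap2a and Tfap2b and the other strong movers can be set side by side. RefSeq promoter windows (GRCm38.p6) were found for 30 of the 41 factors, 46 windows in all, and Foxq1, Grhl2, Hnf4g, Irx1, Maf, Osr1, Osr2, Ehf, Sim2, Tbx2 and Tbx3 had none in that table. Each sequence is the 250 bases before a transcription start, 5′ to 3′ on the gene's own strand. Capitals mark matches to 6 short motifs searched on both strands: AP-1 (TGANTCA), TEAD (GGAATG), GRHL (AACCNGTT), an ERR motif (AAGGTCA), AP-2 (GCCNNNGGC) and a GATA factor motif (AGATAA). These are the loop and distal genes.
Prox1, upstream start (chr1:190170828-190171077, minus strand): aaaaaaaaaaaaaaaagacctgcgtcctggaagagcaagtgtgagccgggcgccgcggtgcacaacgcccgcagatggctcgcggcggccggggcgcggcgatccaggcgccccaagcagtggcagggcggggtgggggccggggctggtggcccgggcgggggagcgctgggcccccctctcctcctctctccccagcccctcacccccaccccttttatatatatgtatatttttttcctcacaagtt
Esrrb, upstream start (chr12:86360867-86361116, plus strand): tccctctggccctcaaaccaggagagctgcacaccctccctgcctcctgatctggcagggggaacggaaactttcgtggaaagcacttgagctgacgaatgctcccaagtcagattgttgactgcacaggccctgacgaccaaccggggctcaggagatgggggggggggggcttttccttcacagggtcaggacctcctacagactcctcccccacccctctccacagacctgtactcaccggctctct
Tfap2a, upstream start (chr13:40734921-40735170, minus strand): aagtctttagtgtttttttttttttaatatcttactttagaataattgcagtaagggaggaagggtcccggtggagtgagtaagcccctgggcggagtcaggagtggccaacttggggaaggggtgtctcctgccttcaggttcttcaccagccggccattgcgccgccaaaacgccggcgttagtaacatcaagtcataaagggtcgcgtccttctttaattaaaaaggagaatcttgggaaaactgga
Tfap2b, its listed start (chr1:19211804-19212053, plus strand): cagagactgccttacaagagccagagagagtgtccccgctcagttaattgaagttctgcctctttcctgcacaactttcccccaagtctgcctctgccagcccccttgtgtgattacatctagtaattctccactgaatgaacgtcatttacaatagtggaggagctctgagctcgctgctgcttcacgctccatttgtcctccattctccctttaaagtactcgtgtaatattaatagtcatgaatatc

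None of these 4 windows holds any of the 6 motifs. A match describes the letters and not binding. Over the 46 windows of the 41 factors the AP-2 letters were in 10 (21.7%), against 13.7% of all 32851 windows in the table, and the TEAD letters in 8 (17.4%), against 12.6%. By direction, TEAD letters were in 3 of 11 windows of factors that rose and 5 of 31 windows of factors that fell, and AP-2 letters in 2 of 11 and 7 of 31. AP-1, GRHL and GATA factor letters were in 1 window each (2.17%, against 6.75%, 1.79% and 9.99% of all), and ERR letters in none, against 4.08% of all windows.

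Irx1, Irx2 and Irx3 are Iroquois homeobox genes, which in Xenopus are needed for the intermediate part of the pronephric tubule, and each of the 3 fell. Irx1 read 2813 and 2300 in KO-labelled libraries and 4963 and 6130 in the WT-labelled ones (log2 difference -1.12, SE 0.134, limma adjusted p = 0.000595). Irx3 read 1642 and 1388 in KO-labelled and 3035 and 3182 in WT-labelled libraries, and its log2 difference was -1.04 (SE 0.104, adjusted p = 0.000267). Irx2 had the smallest difference of the 3, with 2545 and 2150 in KO-labelled and 3251 and 2975 in WT-labelled libraries (log2 difference -0.41, adjusted p = 0.0160). Its call was lost without KO replicate 2 (log2 difference -0.29, adjusted p = 0.0931), without WT replicate 1 (-0.35, 0.0837) and with no variance trend (adjusted p = 0.0716). Of the other Iroquois genes, picked out after their values were seen, Irx4 and Irx5 fell (log2 differences -1.96 and -0.90), whereas Irx6 rose, with 50.4 and 51.8 normalized reads in KO-labelled and 11.8 and 14.9 in WT-labelled libraries (log2 difference 1.87, adjusted p = 0.00418).

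The remaining loop and distal factors fell by less than 1 on the log2 scale. Mecom, a zinc finger factor that patterns the distal pronephros in zebrafish, read 4598 and 4306 in the KO-labelled libraries and 8803 and 8354 in the WT-labelled ones (log2 difference -0.95, SE 0.078, limma adjusted p = 0.000120). Sim2, a bHLH-PAS factor, read 3809 and 3392 in KO-labelled and 5786 and 6036 in WT-labelled libraries (log2 difference -0.72, adjusted p = 0.000592). Pou3f3, also called Brn1, which mice need to form the loop of Henle, kept most of its level. It read 8246 and 7533 in the KO-labelled libraries and 10678 and 10519 in the WT-labelled ones, a 1.34-fold lower mean (log2 difference -0.43, SE 0.080, adjusted p = 0.00418).

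Markers of the segments these factors serve were mostly lower in the same libraries. Of 16 thick ascending limb markers 12 fell and 3 rose, with a median log2 difference of -2.11, and of 12 thin limb markers 8 fell and 2 rose, with a median of -1.28. Egf, Tmem207 and Wfdc15b, thick ascending limb genes, had log2 differences of -6.43, -4.74 and -3.58. The 3 that rose, picked out after their values were seen like the other exceptions to a list named below, were Cldn16 (0.28), Enox1 (2.01) and Cldn14 (2.65). Umod, uromodulin, the defining protein of this segment, had 203680 and 138033 normalized reads in KO-labelled and 136828 and 143709 in WT-labelled libraries, so the groups overlapped, and it did not pass (log2 difference 0.26, adjusted p = 0.294). In the thin limb list Corin and Lypd2 had -2.85 and -4.92, whereas Cp, ceruloplasmin, and Tspan8 rose (2.96 and 0.35). In the distal convoluted tubule list 4 of 8 fell and 3 rose, with Wnk4 and Klk1 lower (log2 differences -2.15 and -4.13) and Slc8a1, Trpm6 and Trpv5 higher (0.88, 2.51 and 3.37). The summed thick ascending limb markers ranged from 190857 to 271108 normalized reads in the KO-labelled libraries and from 542554 to 565560 in the WT-labelled ones. Umod made up 75.1% and 72.3% of that sum in the KO-labelled and 25.2% and 25.4% in the WT-labelled libraries. Without Umod the sum was 67427 and 52824 in KO-labelled and 405726 and 421851 in WT-labelled libraries, 6.88-fold lower, against 2.40-fold with it. The part of these shifts in the factors' falls was not tested.

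Genes that ERR receptors are known to activate fell with Esrrb and Esrrg. All 8 of a list of ERR targets in oxidative metabolism were lower, with a median log2 difference of -1.34. Ppargc1a, the coactivator of these receptors, read 3062 and 2840 in KO-labelled libraries and 12919 and 11090 in the WT-labelled ones (log2 difference -2.02, limma adjusted p = 1.56e-05). Acadm, an enzyme of fatty acid oxidation, had a log2 difference of -1.12. Esrra, the third ERR gene, which was picked out after its values were seen, had -1.31. The part of the receptors, or of the lower segment markers, in these falls was not tested.

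**Figure D2:**
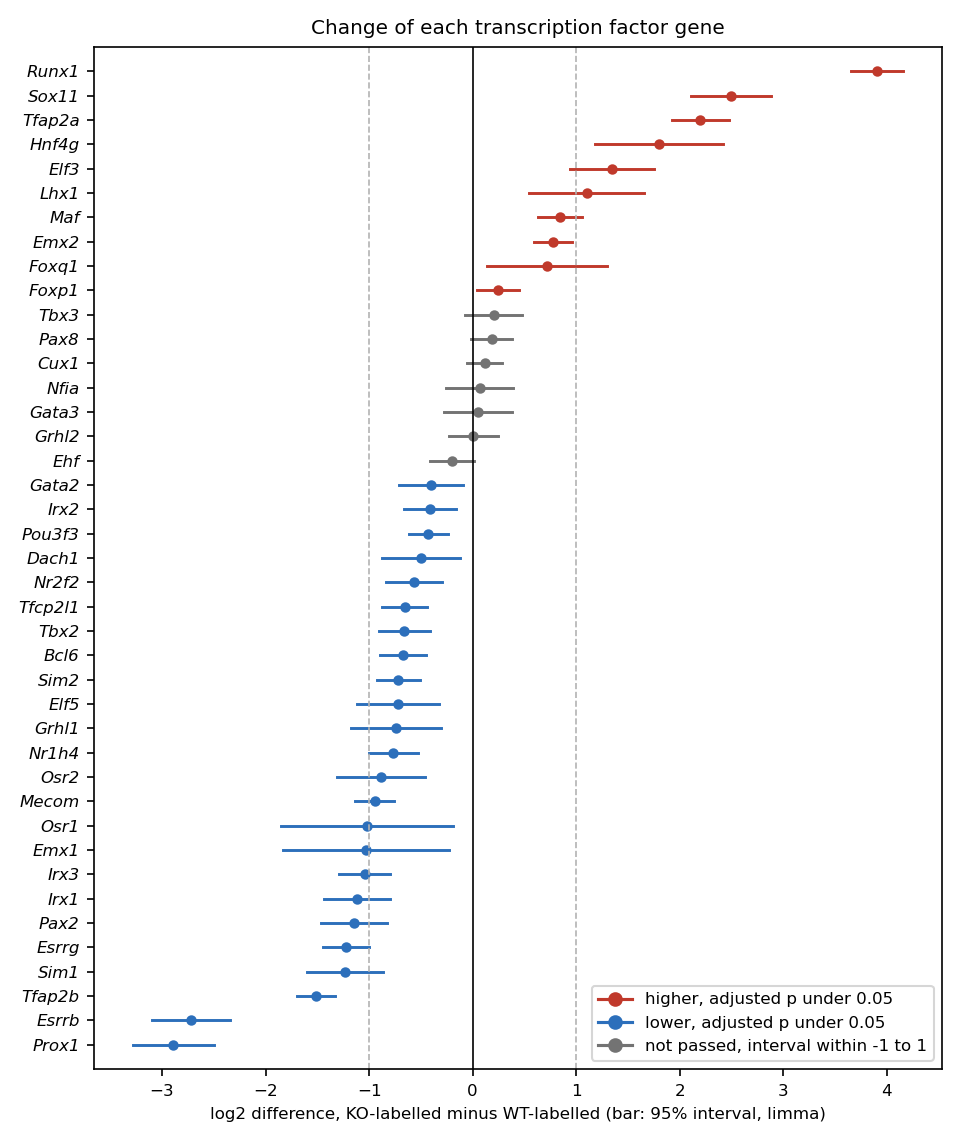
Log2 difference (KO-labelled minus WT-labelled, horizontal axis) of each factor with its 95% interval from limma, ordered from the largest rise (top) to the deepest fall, with dashed lines at -1 and 1. Runx1 (3.91) and Prox1 (-2.89) are the ends of the range, and the 7 grey factors did not pass the threshold.

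Of the 9 collecting duct and epithelial factors 5 fell, 1 rose and 3 held, with a median log2 difference of -0.40. Tfcp2l1, a CP2-family factor that patterns principal and intercalated cells of the collecting duct, read 18469 and 18689 in the KO-labelled libraries and 27516 and 31083 in the WT-labelled ones. The groups did not overlap and the mean was 1.58-fold lower (log2 difference -0.65, SE 0.091, limma adjusted p = 0.00115; chromosome 1, 118627923 to 118685168). Nr1h4, the bile acid receptor FXR, read 907 and 943 in KO-labelled and 1503 and 1646 in WT-labelled libraries (log2 difference -0.77, SE 0.099, adjusted p = 0.000803). Of 4 tested FXR targets, 3 fell and 1 rose (Abcb4, log2 difference 1.27); Nr0b2, its classical target, had 6.44 and 6.59 normalized reads in KO-labelled libraries and 61.1 and 39.8 in the WT-labelled ones. Slc51b and Slc51a, the subunits of a bile acid exporter, had log2 differences of -0.96 and -1.54.

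Grhl2, a grainyhead factor that keeps epithelial junction genes on in the collecting duct, held. It had 2844 and 2573 normalized reads in the KO-labelled libraries and 2519 and 2886 in the WT-labelled ones, so the groups overlapped (log2 difference 0.00, 95% interval -0.23 to 0.24, limma adjusted p = 0.972). Among 6 known GRHL2 targets 2 rose and none fell: Cldn4, a tight junction claudin, by 2.59 and Esrp1, a splicing regulator of epithelia, by 0.43 on the log2 scale. Epcam, an epithelial adhesion molecule, had a log2 difference of 0.22 and did not pass (adjusted p = 0.100). Grhl1, a relative present at much lower counts, read 134 and 144 in KO-labelled and 247 and 220 in WT-labelled libraries (log2 difference -0.74, adjusted p = 0.0136). The call of Grhl1 was lost without KO replicate 1 (adjusted p = 0.0589) and without WT replicate 1 (0.0798).

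The epithelial ETS genes gave 1 rise, 1 fall and 1 that held. Elf3, which is known to be induced in inflamed epithelia, rose 2.58-fold, with 8701 and 5896 normalized reads in the KO-labelled libraries and 2683 and 2965 in the WT-labelled ones (log2 difference 1.34, SE 0.171, limma adjusted p = 0.000764; chromosome 1, 135253574 to 135258472). The KO-labelled replicates differed, but both lay far above the WT-labelled range. Elf5, a factor of principal cells, read 669 and 480 in KO-labelled and 936 and 930 in WT-labelled libraries (log2 difference -0.72, adjusted p = 0.0106), and its call was lost without WT replicate 1 (adjusted p = 0.0542) or WT replicate 2 (0.0502); without KO replicate 2 the log2 difference was -0.48. Ehf, the third of the family, held, with 10487 and 9457 in KO-labelled and 10980 and 11905 in WT-labelled libraries (log2 difference -0.20, 95% interval -0.41 to 0.01, adjusted p = 0.0985).

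Gata3, a factor of the nephric duct and its derivatives, read 2457 and 1828 in the KO-labelled libraries, on either side of the 2078 and 2015 in the WT-labelled ones (log2 difference 0.05, 95% interval -0.28 to 0.38, limma adjusted p = 0.783). Gata2, which activates Aqp2 in principal cells, read 1931 and 1508 in KO-labelled and 2140 and 2383 in WT-labelled libraries (log2 difference -0.40, adjusted p = 0.0380). This call rested on single libraries: the adjusted p was 0.20 without KO replicate 2 (log2 difference -0.23), 0.0670 without WT replicate 1 and 0.166 without WT replicate 2, and 0.119 with no variance trend.

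Of 14 principal cell markers 10 fell and 2 rose, with a median log2 difference of -1.38. Aqp3 and Rhcg, a water channel and an ammonia transporter, had log2 differences of -2.93 and -2.50. Slc14a1, a urea transporter in this list that is not particular to principal cells, had -1.47. The part of other cells in its fall was not tested. The 2 that rose were St6gal1 (0.99) and Tmem45b (0.49). Intercalated cell markers fell in 11 of 14 and rose in 1 (Spink8, 3.14), with a median of -2.02; Slc4a1, the chloride-bicarbonate exchanger, Aqp6 and the lineage factor Foxi1 had -5.75, -2.33 and -2.06. The differences between these marker medians and the factors were not tested. Of 10 urothelium markers 8 fell and 1 rose (Krt20, 4.98), with a median of -1.81, and of 6 podocyte markers 3 fell and 1 rose (Synpo, 0.74), with a median of -1.42.

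**Figure D3:**
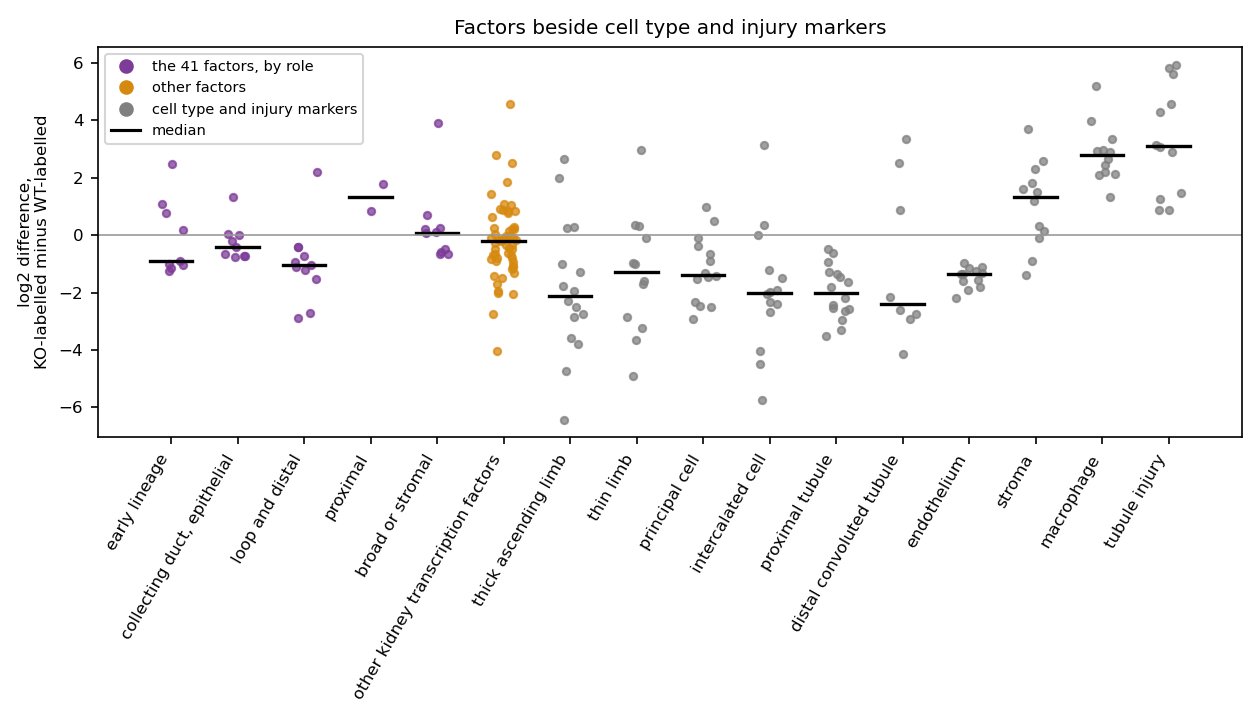
Log2 difference (KO-labelled minus WT-labelled, vertical axis) of each gene in the factor groups (purple), in a list of other kidney factors (orange) and in cell type and injury marker lists (grey), with each list's median as a black bar. The medians of the segment marker lists lie between -1.28 and -2.38, below those of the factor groups, while macrophage and injury markers have medians of 2.79 and 3.11.

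Early nephron and duct factors went both ways: 5 of 9 fell, 3 rose and 1 held, with a median log2 difference of -0.89. The PAX genes parted. Pax2, which the nephric lineage needs to form, read 3053 and 2441 in the KO-labelled libraries and 6631 and 5480 in the WT-labelled ones, a 2.2-fold lower mean (log2 difference -1.14, SE 0.135, limma adjusted p = 0.000544; chromosome 19, 44746601 to 44838269). Pax8, which acts redundantly with Pax2 in the early lineage, held, with 8631 and 7904 in KO-labelled and 6996 and 7562 in WT-labelled libraries (log2 difference 0.18, 95% interval -0.02 to 0.38, adjusted p = 0.109). After quantile normalization Pax8 passed the threshold as higher (log2 difference 0.24, adjusted p = 0.0421).

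Sox11, a SOXC factor active in the developing kidney, was the second largest rise among the 41. It had 1745 and 1387 normalized reads in the KO-labelled libraries and 304 and 248 in the WT-labelled ones, a 5.67-fold higher mean (log2 difference 2.50, SE 0.162, limma adjusted p = 4.63e-05; chromosome 12, 27334268 to 27342718). Lhx1, a LIM homeodomain factor of the nephric duct and the early nephron, read 445 and 329 in KO-labelled and 150 and 211 in WT-labelled libraries, a 2.15-fold higher mean (log2 difference 1.10, SE 0.234, adjusted p = 0.00726). Emx2, a homeobox factor that the ureteric bud needs to branch, read 3548 and 3547 in KO-labelled and 2019 and 2117 in WT-labelled libraries (log2 difference 0.78, SE 0.078, adjusted p = 0.000273). Its antisense neighbour Emx2os overlaps 8.8% of its exon length and was also higher, at 598 and 602 in KO-labelled and 437 and 371 in WT-labelled libraries; without a stated strand setting their reads cannot be told apart where they overlap.

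The promoter window of Sox11 is shown with the same motifs in capitals.
Sox11, its listed start (chr12:27342719-27342968, minus strand): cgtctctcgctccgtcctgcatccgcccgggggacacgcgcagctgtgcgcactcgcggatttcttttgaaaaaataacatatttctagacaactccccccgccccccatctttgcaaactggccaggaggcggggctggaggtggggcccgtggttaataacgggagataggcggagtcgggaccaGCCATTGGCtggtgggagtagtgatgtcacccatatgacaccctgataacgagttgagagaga
It holds GCCATTGGC, a match to the AP-2 letters that spells a CCAAT box on its other strand.

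Sim1, a bHLH-PAS factor best known from the hypothalamus, fell, with 2401 and 2602 normalized reads in the KO-labelled libraries and 6975 and 4941 in the WT-labelled ones (log2 difference -1.23, SE 0.155, limma adjusted p = 0.000725). Osr2, an odd-skipped zinc finger factor, read 278 and 341 in KO-labelled and 504 and 644 in WT-labelled libraries (log2 difference -0.89, adjusted p = 0.00591). Osr1, the odd-skipped factor that marks the intermediate mesoderm, was scarce, at 19.3 and 30.1 in KO-labelled and 51.2 and 48.7 in WT-labelled libraries. Its log2 difference of -1.02 (adjusted p = 0.0457) did not keep its call without KO replicate 1 (adjusted p = 0.190), WT replicate 1 (0.144) or WT replicate 2 (0.122), by DESeq2 (0.154), with the replicate block (0.0634) or with no filter on low values (0.0713). Emx1 was also low, at 65.4 and 82.9 in KO-labelled and 109 and 210 in WT-labelled libraries. Its call (log2 difference -1.03, adjusted p = 0.0397) was lost without KO replicate 1 (adjusted p = 0.123) and without WT replicate 2, where the log2 difference was -0.56 (adjusted p = 0.210), as well as with no variance trend (0.0929) and with no filter (0.0746). Markers of nephron progenitors, which the mouse kidney uses up soon after birth, were summed over 6 genes. The sum was 827 to 903 normalized reads in the KO-labelled and 773 to 915 in the WT-labelled libraries. With all 6 genes the groups overlapped. Without Meox1, the most abundant, the sum was 416 and 598 in KO-labelled and 337 and 400 in WT-labelled libraries. That sum, made after the values were seen, did not overlap between groups, but this was so for 78.5% of all genes tested. Of the 5 tested, 2 rose and 2 fell, Cited1 and Eya1 being lower and Gdnf and Crym higher.

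The 2 factors placed with the proximal tubule both rose. Hnf4g, a nuclear receptor related to the proximal tubule regulator HNF4 alpha, read 292 and 314 in the KO-labelled libraries and 109 and 67.6 in the WT-labelled ones, a 3.42-fold higher mean (log2 difference 1.80, SE 0.260, limma adjusted p = 0.00135; chromosome 3, 3508030 to 3659800). Maf, a leucine zipper factor that is also expressed in macrophages, read 3411 and 3795 in KO-labelled and 1943 and 2065 in WT-labelled libraries (log2 difference 0.84, SE 0.090, adjusted p = 0.000344); macrophage markers rose in the same libraries, as given with Runx1, and their part in the rise of Maf was not tested. Proximal tubule markers moved the other way: of 16, 14 fell and 0 rose (median log2 difference -2.01), and Slc6a19, Slc7a13 and Miox had -2.43, -2.56 and -3.30. The sum of these mainly cortical markers also differed within groups, at 47340 to 81260 normalized reads in the KO-labelled libraries and 150380 to 186960 in the WT-labelled ones. Kap made up 53.1% and 52.6% of that sum in KO-labelled and 63.3% and 39.1% in WT-labelled libraries. Without Kap the sum was 22210 and 38544 in KO-labelled and 68536 and 91601 in WT-labelled libraries, so the order of the WT-labelled libraries reversed.

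Among the factors with broad or stromal expression 3 of 10 rose, 4 fell and 3 held, with a median log2 difference of 0.09. Over all genes tested 26.3% rose, 24.9% fell and 38.4% were held. Runx1, the core binding factor of blood cell formation, was the largest change of all 41. It had 4106 and 3765 normalized reads in the KO-labelled libraries and 274 and 249 in the WT-labelled ones, a 15-fold higher mean (3935 ± 241 in KO-labelled and 262 ± 17.2 in WT-labelled libraries, SD, n = 2 each; log2 difference 3.91, SE 0.108, limma adjusted p = 3.08e-06; chromosome 16, 92601466 to 92826074). Runx1 is expressed in macrophages as well as in injured epithelium. Macrophage markers rose in 12 of 12, with a median of 2.79, none at 0 and summed levels of 57650 to 57798 in the KO-labelled and 11154 to 11450 in the WT-labelled libraries; C1qa, Cd14 and Lyz2 rose 6.37-fold, 7.54-fold and 7.63-fold. Tubule injury markers rose in 12 of 12, with a median of 3.11, among them Timp1, Clu and Lcn2. The part of either in the rise of Runx1 was not tested. Of 10 lymphocyte markers, 7 were tested and 2 rose, Cd4 and Il7r, with a sum of 700 to 902 normalized reads in KO-labelled and 208 to 279 in WT-labelled libraries; without Cd4 that sum was 134 and 199 in KO-labelled and 137 and 91.4 in WT-labelled libraries, so the groups overlapped.

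Runx1 has 2 listed starts, and the window of each is shown.
Runx1, upstream start (chr16:92826075-92826324, minus strand): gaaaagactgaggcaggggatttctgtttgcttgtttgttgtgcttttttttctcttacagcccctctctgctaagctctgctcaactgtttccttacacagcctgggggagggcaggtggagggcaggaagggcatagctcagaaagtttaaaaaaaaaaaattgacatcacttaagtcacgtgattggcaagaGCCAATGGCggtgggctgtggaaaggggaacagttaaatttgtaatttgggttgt
Runx1, downstream start (chr16:92697330-92697579, minus strand): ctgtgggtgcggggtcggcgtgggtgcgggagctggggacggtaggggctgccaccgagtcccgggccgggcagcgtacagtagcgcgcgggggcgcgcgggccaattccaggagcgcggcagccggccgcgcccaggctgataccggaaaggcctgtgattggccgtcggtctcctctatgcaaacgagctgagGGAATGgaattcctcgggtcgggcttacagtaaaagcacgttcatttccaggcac
The upstream window holds GCCAATGGC, a match to the AP-2 letters that contains a CCAAT box, and the downstream window holds a TEAD match.

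Nr2f2, or COUP-TFII, a nuclear receptor of stromal cells and venous endothelium, fell, with 12552 and 15202 normalized reads in the KO-labelled libraries and 21735 and 19351 in the WT-labelled ones (log2 difference -0.57, SE 0.115, limma adjusted p = 0.00577). Endothelial and stromal markers moved apart in these libraries. Among the 12 endothelial markers Plvap, Tek and Emcn had log2 differences of -2.18, -1.90 and -1.82. Of 12 stromal markers 7 rose and 2 fell (Fbln5, -0.88, and Rgs5, -1.38), with a median of 1.33 and Thy1, Col1a1 and Vim at 3.70, 2.59 and 1.49. Their part in the fall of Nr2f2 was not tested. Tbx2, a T-box repressor, read 4681 and 3986 in KO-labelled and 6466 and 7196 in WT-labelled libraries (log2 difference -0.66, adjusted p = 0.00194), whereas its relative Tbx3 held at 2772 and 2211 in KO-labelled and 2140 and 2158 in WT-labelled libraries (log2 difference 0.20, 95% interval -0.07 to 0.48, adjusted p = 0.185). Tbx3 passed the threshold without KO replicate 2 (log2 difference 0.37, adjusted p = 0.0393).

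Bcl6, a transcriptional repressor, read 1946 and 1860 in the KO-labelled libraries and 2840 and 3230 in the WT-labelled ones (log2 difference -0.67, SE 0.094, limma adjusted p = 0.00115). Cux1, a homeobox factor present in most cells, held at 6350 and 6330 in KO-labelled and 5794 and 5909 in WT-labelled libraries (log2 difference 0.12, 95% interval -0.05 to 0.28, adjusted p = 0.215). Nfia, a nuclear factor I gene, also held, with overlapping groups at 2820 and 3265 in KO-labelled and 3292 and 2547 in WT-labelled libraries (log2 difference 0.07, 95% interval -0.26 to 0.39, adjusted p = 0.702).

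The calls of Dach1, Foxp1 and Foxq1 were close to the threshold and rested on single libraries. Dach1, a nuclear corepressor, read 1786 and 2185 in the KO-labelled libraries and 3236 and 2399 in the WT-labelled ones (log2 difference -0.50, limma adjusted p = 0.0366); without WT replicate 1 it had -0.28 (adjusted p = 0.175) and without KO replicate 1 -0.35 (0.15). Foxp1, a forkhead repressor, read 2098 and 2073 in KO-labelled and 1705 and 1823 in WT-labelled libraries (log2 difference 0.24, adjusted p = 0.0488), and lost its call when any 1 of the 4 libraries was left out (adjusted p between 0.0620 and 0.186), by edgeR (0.0521) and by DESeq2 (0.0747). Foxq1, another forkhead gene, read 2272 and 1263 in KO-labelled and 1064 and 994 in WT-labelled libraries (log2 difference 0.72, adjusted p = 0.0440). Without KO replicate 1 it had a log2 difference of 0.30 (adjusted p = 0.140) and without KO replicate 2 one of 1.14 (0.000329); the call was also lost without WT replicate 1 (0.119) or WT replicate 2 (0.158). An antisense transcript overlaps 66.1% of the exon length of Foxq1, so its count is uncertain; among the other 40 factors the overlap with any gene was at most 14.6%, in Tfap2a.

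Comparing relatives inside each library removes library scaling, and in 13 of 15 pairs of related factors the log2 ratio shifted, with a 95% interval of the shift that left out 0. These intervals come from limma on the ratios, with the spread pooled over the 15 pairs, and are not adjusted for their number. Some pairs share a gene. Of all genes tested 24.9% fell and 26.3% rose. Pairs of other genes were not fitted, so the count of 13 has no background. The count rested on single libraries: it was 7 without KO replicate 1, 8 without KO replicate 2, 10 without WT replicate 1 and 11 without WT replicate 2. In 7 pairs the interval left out 0 in all 4 of these fits, namely Tfap2a to Tfap2b, Elf3 to Elf5, Elf3 to Ehf, Emx1 to Emx2, Esrrb to Esrrg, Pax2 to Pax8 and Tbx2 to Tbx3. The Tfap2a to Tfap2b log2 ratio was -0.73 and -0.59 in the KO-labelled libraries and -4.51 and -4.23 in the WT-labelled ones, a shift of 3.71 (95% interval 3.30 to 4.12). Elf3 to Elf5 stood at 3.70 and 3.62 in KO-labelled and 1.52 and 1.67 in WT-labelled libraries, a shift of 2.06 (1.66 to 2.47). Emx1 to Emx2 shifted by -1.81 (-2.32 to -1.30), Esrrb to Esrrg by -1.50 (-1.97 to -1.02) and Pax2 to Pax8 by -1.33 (-1.86 to -0.79). Esrrb thus fell by more than Esrrg, and Pax2 parted from Pax8, in the fit of all libraries and in each that left 1 out.

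Smaller shifts were those of Tbx2 to Tbx3 (-0.86, 95% interval -1.31 to -0.41), Grhl1 to Grhl2 (-0.75, -1.21 to -0.28), Irx1 to Irx2 (-0.71, -1.14 to -0.27) and Irx2 to Irx3 (0.63, 0.22 to 1.04). Gata2 to Gata3 (-0.45, -0.86 to -0.05) and Sim1 to Sim2 (-0.51, -0.99 to -0.04) had intervals that came close to 0. For Irx1 to Irx3 the shift was -0.08 (-0.50 to 0.35) and for Osr1 to Osr2 -0.13 (-1.18 to 0.92), intervals that held 0; the interval of Osr1 to Osr2 also held -1. Elf3 to Ehf and Elf5 to Ehf shifted by 1.54 and -0.52. The shifts of Elf5 to Ehf, Grhl1 to Grhl2, Irx1 to Irx2, Irx2 to Irx3, Gata2 to Gata3 and Sim1 to Sim2 had intervals that held 0 when at least 1 of the 4 libraries was left out.

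**Figure D4:**
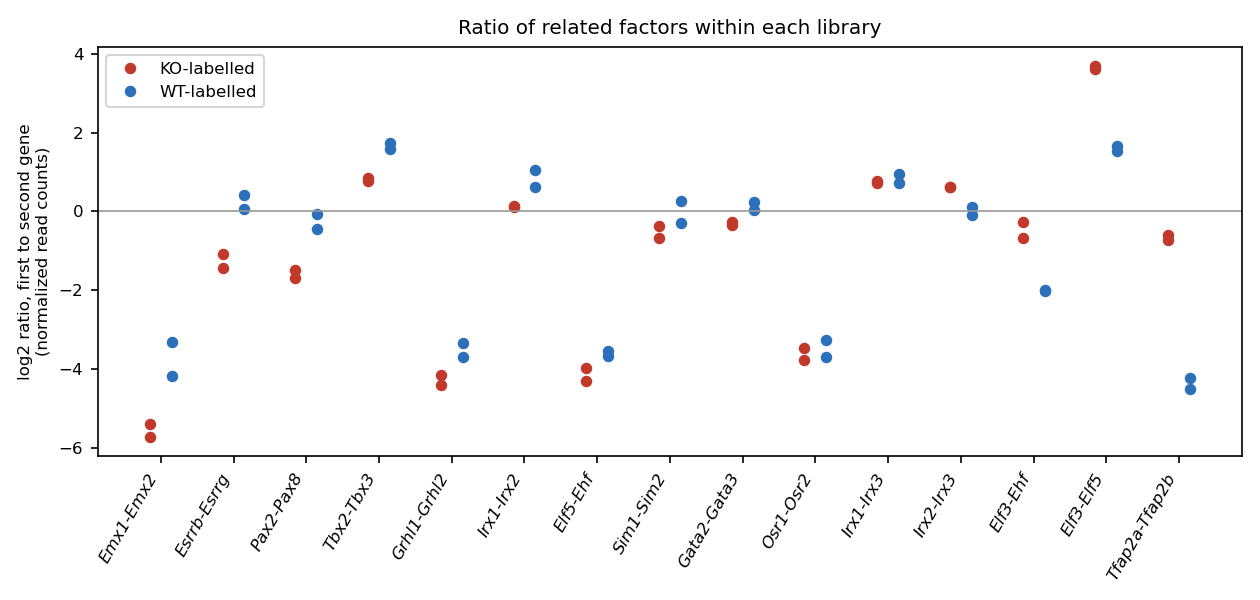
Log2 ratio of normalized read counts of the first to the second gene of 15 pairs of related factors (vertical axis) in each library, with KO-labelled libraries (red) left of WT-labelled ones (blue), ordered by the shift. Only changes of a ratio between groups can be read, since the genes differ in length; Emx1 to Emx2 and Tfap2a to Tfap2b are at the ends, at -1.81 and 3.71.

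Levels of different factors were compared as normalized reads per kilobase of exon, with exon lengths from GENCODE M21 on the same build. A length covers every annotated exon of the gene, so genes with many transcript forms read lower per kilobase. In the WT-labelled medulla Tfcp2l1 ranked first, at 2915 and 3293 per kilobase, ahead of Nr2f2 (2520 and 2244), Irx1 (1894 and 2340), Ehf (1969 and 2135) and Tbx2 (1783 and 1985). In that order Nr2f2 and Irx1 overlapped, as did Irx1, Ehf and Tbx2, so these neighbours did not differ beyond their spread. In the KO-labelled medulla Elf3 ranked first, at 3925 and 2659 per kilobase, against rank 10 in the WT-labelled medulla. It was followed by Tfcp2l1 (1957 and 1980), Ehf (1881 and 1696), Nr2f2 (1455 and 1763) and Pax8 (1424 and 1304), of which Ehf and Nr2f2 overlapped. Esrrb was at rank 31 in KO-labelled and rank 6 in WT-labelled medulla, and Runx1, the scarcest of the 41 in WT-labelled medulla at 22.8 and 20.7 per kilobase, was at rank 23 in KO-labelled medulla, at 341 and 313.

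**Figure D5:**
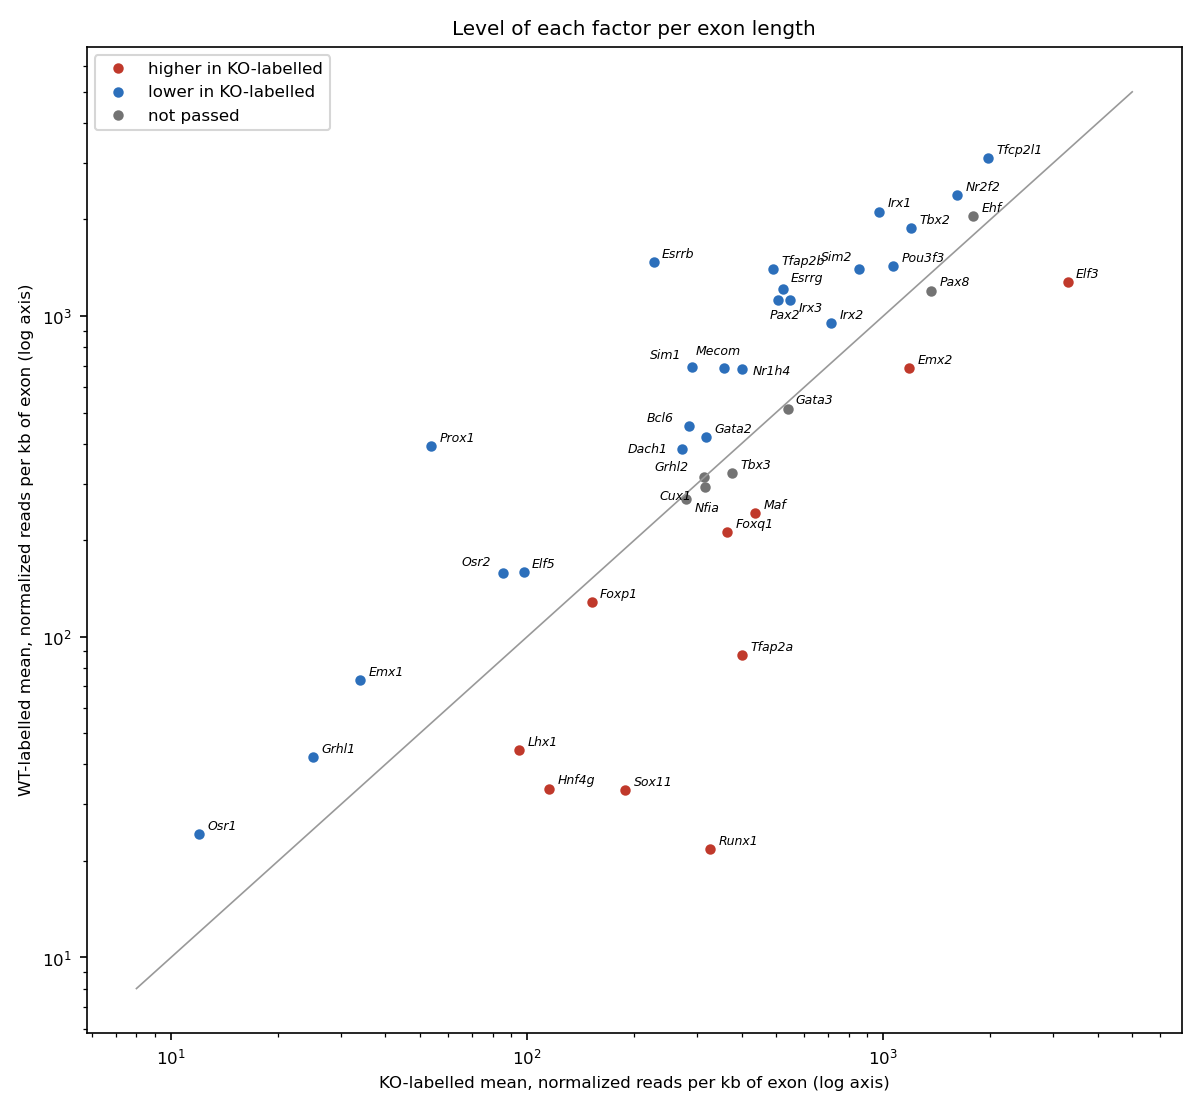
Mean level of each factor in normalized reads per kilobase of exon in KO-labelled (horizontal, log axis) and WT-labelled medulla (vertical, log axis), with the line of equal levels. Elf3 is the right-most point, Runx1 lies farthest below the line, and Esrrb and Prox1 lie farthest above it.

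A list of other kidney transcription factors held 63 genes that are not among the 41. For comparison, 4051 of the 16253 genes tested fell and 4277 rose. Of the 56 tested, 24 of 56 fell and 12 of 56 rose, with a median log2 difference of -0.20. Over all genes tested 24.9% fell and 26.3% rose. Sox9, a factor of injured and regenerating tubules, had 1339 and 850 normalized reads in the KO-labelled libraries and 41.4 and 45.7 in the WT-labelled ones (log2 difference 4.58, limma adjusted p = 2.24e-05). Foxi1, the intercalated cell factor named above, and Ppargc1a had the smallest p-values among the falls. Relatives of the 41, picked out after their values were seen, went both ways. Among them Runx3, Runx2 and Sox4 were higher by 2.81, 1.07 and 0.79 on the log2 scale. Bcl6b, Grhl3 and Prdm16 were lower, with log2 differences of -1.71, -1.17 and -0.82.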

How the data were processed

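The data were mRNA sequencing of kidney medulla from 2 KO-labelled and 2 WT-labelled mice, grouped and numbered by their titles; that each is a separate animal comes from the labels' protocols. The table holds a signal per gene and library, which the authors deposited as normalized counts; the scaling, 1 divisor for each library, was read from the values, of which 100% were whole multiples of 1 step per library (tolerance 0.001 relative). The builds mm10 and GRCm38 and the tools DESeq2 2.11.40.7, featureCounts 2.0.1, HISAT2 2.2.1 and fastp 0.20.1 are named per the submitters' processing notes; annotation, strand setting and treatment of multi-mapping reads were not given in the sources used here. Symbols came from a RefSeq table of GRCm38.p6, which matched 25275 of 27179 identifiers.

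Tests used limma 3.58.1 (R 4.3.3), with the variance modelled as a function of level, on log2(value + 1), which understates changes of low genes, over the 16253 genes averaging 10 or more, two-sided, with Benjamini-Hochberg adjustment and a threshold of 0.05. Its methods were tested on simulated data, in which few genes changed. Many more genes were called here, so that test does not check the counts given. Folds are ratios of group means. Alternatives were pseudocounts of 0.5 and 5, no filter and a minimum of 50, quantile and TMM scaling, other variance models, edgeR 4.0.16 and DESeq2 1.42.0 on recovered reads, a replicate block and leaving out each library. Every one of the 41 factors is named, and of each other list up to 3 tested genes with the smallest p, except items that are not reported here. The factors and lists were chosen with earlier results of these data known, so counts over them are descriptions. Sums of a list without its most abundant gene were chosen after the values were seen.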

Additional observations from a re-analysis of the deposited data

How the results depend on the processing

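Of the 34 factors called, 25 kept their call and direction under all 15 alternatives, 9 lost the call under at least 1, and none changed direction; values for those 9 stand with each gene in the results. Beside the settings named there, Gata2, Foxq1, Foxp1 and Dach1 lost the call with no filter on low values, Foxq1, Foxp1 and Dach1 with no variance trend, and Foxq1 with quantile normalization or a robust variance trend; the cause was not tested. Counts of called factors moved by less than 1.5 times under each alternative, between 8 and 10 higher and between 18 and 24 lower. Same-numbered libraries showed little shared deviation (correlation of deviations -0.06 over 2 pairs), but so few pairs cannot exclude a pairing of the samples. With the replicate block 9 factors were higher and 23 lower, the calls of Osr1 and Foxp1 being lost. Over all genes 3810 were then higher and 3619 lower. Leaving out 1 library, 9 to 11 factors held (11 without WT replicate 1, against 7 with all libraries) and 5 to 11 of the 15 pairs passed an adjusted p of 0.05, against 13; the lone library is then assumed to vary like the other group, and fewer samples enter. Differences near 0 changed sign: Grhl2 had -0.007 by edgeR, -0.001 by DESeq2 and between -0.093 and 0.103 with 1 library left out, Gata3 between -0.163 and 0.264, and Nfia between -0.117 and 0.253. Quantile and TMM scaling moved the median of all genes by -0.02 and 0.01. With 2 libraries a group, the limma p-values rest on the spread between few animals and on variance shared across genes of similar level. The degrees of freedom were 2 before this sharing and 6.96 after it. Counts of low genes such as Osr1 and Emx1 limit their calls.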
